A study of Sus scrofa with 63 samples.

Results

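The breed of the sire was compared among fetuses carried by Large White (LW) sows at day 90 of gestation, in 8 MSLW fetuses, sired by a Meishan (MS) boar, and 9 LW fetuses, sired by an LW boar. These 17 male fetuses were all those with the MSLW or LW genotype at that age among the 63 whose jejunum was measured on one-colour Agilent 60-mer arrays, with 1 fetus per array. LW sows had been inseminated with a mixture of LW and MS semen, so purebred and crossbred fetuses could share a litter and the breed of the sow, the gestational age and the sex were the same in both groups. The crossbred fetuses carried 1 MS and 1 LW set of autosomes and the purebred fetuses 2 LW sets, and no treatment was applied. Fetuses were taken by caesarean, and total RNA came from a middle piece of jejunum, a tissue of many cell types, in which fewer cells of a type and less RNA per cell cannot be told apart. The same contrast of sires was available in fetuses with no array in common with these 17, namely 6 MS against 9 LWMS fetuses carried by MS sows at day 90 and 6 MSLW against 9 LW fetuses carried by LW sows at day 110. The sows were not part of the fit, so litter mates counted as independent fetuses and the p-values can be too small or too large where litters differ.

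Late in gestation the fetus swallows amniotic fluid, which the jejunum absorbs. The jejunal villi are lined by enterocytes that already carry brush-border enzymes and an active lysosomal system. The mucosa gains goblet, endocrine and immune cells before birth. The Meishan is a Chinese breed whose piglets are small but mature at birth, and the Large White is a European breed selected for lean growth. A crossbred and a purebred fetus in the same uterus share the maternal environment but differ at each autosomal locus where the sire's allele differs. A male fetus has its X chromosome and mitochondria from the sow and its Y chromosome from the sire, and some imprinted genes are read from the copy of the sire alone.

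Values below are log2 signals minus the 75th percentile of their array, so that 1 unit is a factor of 2 and most probes lie below 0. Differences are MSLW minus LW in the signal of a probe. Whether a difference in signal was one of transcript amount, or of the sequence under the probe between breeds, was not tested. With limma, 271 of 40515 probes tested (0.669%) passed at an adjusted p of 0.05, 175 higher (0.432%) and 96 lower (0.237%) in MSLW fetuses. The higher probes were 64.6% of these calls, but 47.7% of the 384 calls in the authors' own processed values. The called probes held 262 distinct sequences and 195 had a gene name, for 160 genes of which 111 were higher and 49 lower. Their median absolute difference was 0.92, against 0.19 over all probes tested, and 117 differed by 1 or more and 27 by 2 or more. The values of the groups did not overlap for 37 of the called probes and for 69 of all probes tested (0.170%). At an unadjusted p under 0.05, 5187 probes differed. The study fitted both parental genotypes with gestational age in a mixed model and reported that paternal genotype affected no probe. That model covered all genotypes and ages together, so its test and the contrast within LW sows at day 90 are unlike. The count of 271 depended on single fetuses, with 139 calls without MSLW fetus 738, 160 without LW fetus 462, 163 without MSLW fetus 900 and 720 without LW fetus 500.

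**Figure D1:**
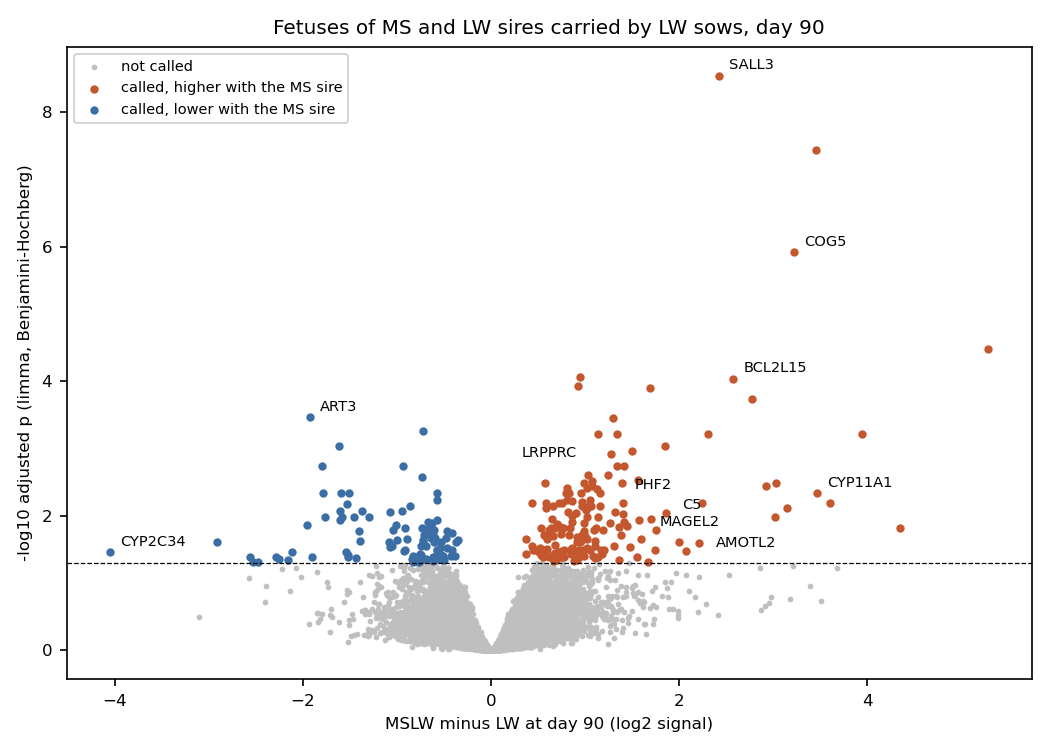
Each point is a probe, with the MSLW minus LW difference at day 90 in log2 signal on the x axis and -log10 of limma's adjusted p on the y axis. The 175 probes called higher with the MS sire (orange) reach larger differences and smaller p-values than the 96 called lower (blue), and SALL3 lies highest.

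Array quality overlapped between the groups. Probes well above background made up 56.3 to 70.8% in MSLW and 56.7 to 73.9% in LW fetuses (mean difference -1.72 percentage points, two-sided exact permutation p = 0.514), and the correlation of arrays was 0.955 to 0.985 within MSLW and 0.909 to 0.991 within LW fetuses. Each fetus was also placed between the group means on the probes called without it. MSLW fetus 450 was nearer the MSLW mean for only 41.1% of the 316 probes called without it, while the other MSLW fetuses were nearer their own mean for 55.0 to 93.5%. LW fetus 500 was nearer the MSLW mean for 73.3% of the 720 probes called without it, against 11.7 to 36.4% for the other LW fetuses. A second placing used the 536 probes (1.32% of those tested) called between sires at day 110, which were chosen in other fetuses. Here the reference means were those of the MSLW and LW fetuses of day 110, so they differed in age from the fetuses placed. The 8 MSLW fetuses of day 90 were nearer that MSLW mean for 35.5 to 58.8% of probes and the 9 LW fetuses for 12.7 to 28.2%. Fetuses 450 (38.8%) and 500 (19%) were each inside the range of their labelled group. LW fetus 484 had the lowest median correlation with its group, 0.925.

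**Figure D2:**
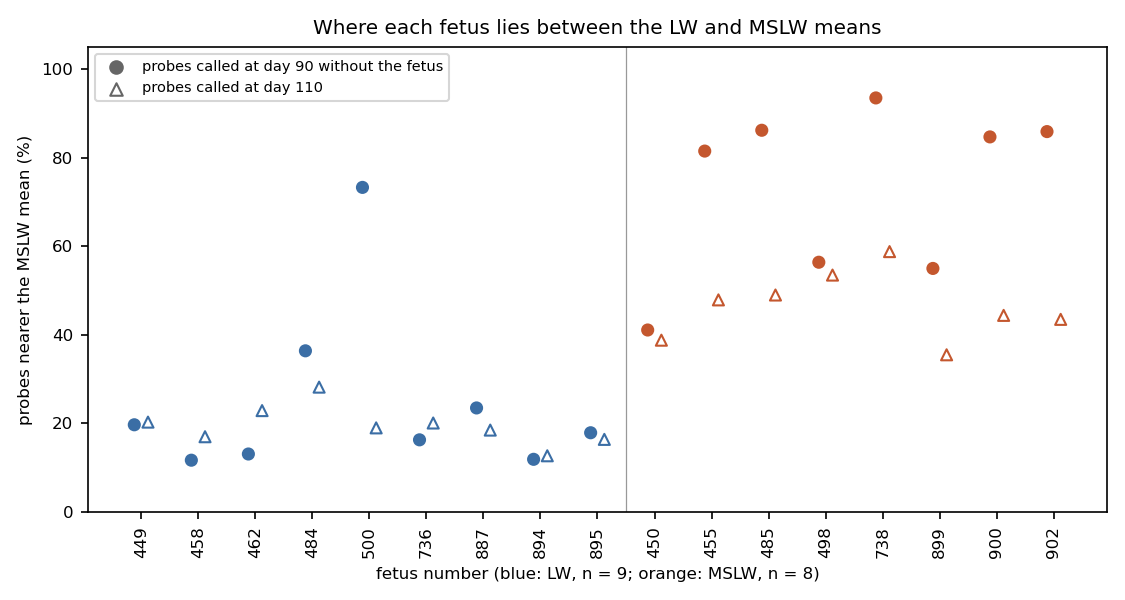
For each of the 9 LW and 8 MSLW fetuses on the x axis, the y axis gives the percentage of probes at which the fetus lies nearer the MSLW than the LW mean. This is given over probes called without that fetus, with the means of day 90, and over the probes called at day 110, with the means of day 110. MSLW fetus 450 at 41.1% and LW fetus 500 at 73.3% lie toward the other group on the probes of day 90, and on those of day 110 the groups do not overlap.

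Some of the genes described below, such as COG5, were near the background in one of the groups, and several were read by 1 probe only. The sequences below are those of the probes on which the description turns, as given in the array files, 5′ to 3′, with capitals for the longest stretch shared with another printed probe of the same gene. CYP11A1, CSN1S1, ALOX5AP and the CYP2C genes are shown because several probes read them, SALL3 and COG5 because a single probe carries the difference, and the last 3 because they had large differences but no gene name.
CYP11A1 O9155: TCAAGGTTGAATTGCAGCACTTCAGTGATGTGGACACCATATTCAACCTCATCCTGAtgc
CYP11A1 RefSeq probe: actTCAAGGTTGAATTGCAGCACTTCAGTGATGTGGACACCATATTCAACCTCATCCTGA
CYP11A1 A_72_P043786: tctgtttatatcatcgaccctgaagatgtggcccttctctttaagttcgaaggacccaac
CYP11A1 A_72_P545357: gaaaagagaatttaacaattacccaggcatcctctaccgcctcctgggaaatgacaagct
CSN1S1 A_72_P745041: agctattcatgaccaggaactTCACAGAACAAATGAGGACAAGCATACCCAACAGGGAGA
CSN1S1 A_72_P738882: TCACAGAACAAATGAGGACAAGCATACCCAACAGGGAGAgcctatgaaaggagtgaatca
CSN1S1 A_72_P727708: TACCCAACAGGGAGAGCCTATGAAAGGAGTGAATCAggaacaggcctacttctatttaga
ALOX5AP A_72_P557500: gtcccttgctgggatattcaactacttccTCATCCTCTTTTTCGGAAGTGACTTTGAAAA
ALOX5AP A_72_P627111: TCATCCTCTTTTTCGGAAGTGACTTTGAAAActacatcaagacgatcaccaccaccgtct
CYP2C34 A_72_P292173: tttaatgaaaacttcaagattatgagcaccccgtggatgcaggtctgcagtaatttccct
CYP2C34 A_72_P445013: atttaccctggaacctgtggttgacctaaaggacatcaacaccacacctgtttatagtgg
CYP2C49 A_72_P146661: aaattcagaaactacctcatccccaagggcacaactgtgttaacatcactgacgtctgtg
SALL3 A_72_P086596: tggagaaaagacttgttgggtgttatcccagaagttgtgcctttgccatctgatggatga
COG5 A_72_P019101: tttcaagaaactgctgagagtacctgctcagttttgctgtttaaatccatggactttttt
COG5 A_72_P318813: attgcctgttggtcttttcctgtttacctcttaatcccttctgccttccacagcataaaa
A_72_P487759: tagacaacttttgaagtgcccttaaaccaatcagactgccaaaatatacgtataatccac
A_72_P265537: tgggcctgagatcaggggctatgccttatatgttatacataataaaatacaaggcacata
A_72_P417829: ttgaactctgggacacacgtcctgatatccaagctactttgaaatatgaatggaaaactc

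CYP11A1, the side-chain cleavage enzyme that starts steroid synthesis from cholesterol, was higher in MSLW fetuses, of which 3 stood apart. Probe A_72_P684857 read -5.33, -2.62 and 1.59 (lowest, median and highest) in the 8 MSLW fetuses and -6.51, -4.78 and -3.76 in the 9 LW fetuses. MSLW fetuses 455, 485 and 738 lay between 1.48 and 1.59, fetuses 498, 899, 900 and 902 between -3.22 and -2.57, and fetus 450 among the LW fetuses. The difference was 3.46 (SE 0.69, limma adjusted p = 0.00462) and 3.02 without fetus 738 (adjusted p = 0.0245). When the 17 fetuses alone entered the fit, the adjusted p was 0.0845 at this probe and 0.103 at the O9155 probe, and neither was called with limma. The O9155 probe was well above background in 5 of 8 MSLW and 0 of 9 LW fetuses, at least 3.46-fold higher (limma adjusted p = 0.00326), with fetuses 455, 485 and 738 again highest at -0.64 to -0.26. Of the 4 called probes, O9155 and A_72_P381703 have the same sequence and the RefSeq probe shares 57 bases with it, as the capitals show, so the calls lie on 2 stretches of the transcript. The other stretches gave 0.86 (A_72_P043786, limma adjusted p = 0.357) and 0.83 (A_72_P545357, adjusted p = 0.213), and at A_72_P545357 the same fetuses 455, 485 and 738 were highest, at -2.59, -2.15 and -2.0 against a median of -4.06 in the group. Genes that mark adrenal cortex and gonad were near background, with the ACTH receptor MC2R well above it in 0 of 17 fetuses, NR5A1 in at most 1 of 8 MSLW and 2 of 9 LW fetuses on any probe, CYP17A1 in at most 2 and 1, and STAR in at most 5 and 4. HSD11B1, which regenerates active glucocorticoid in tissue, was higher at 1 of its probes by 1.42 (SE 0.31, limma adjusted p = 0.0123), while its other 7 probes gave -0.48 to 0.18.

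SALL3, a zinc-finger transcription factor of the spalt family that acts in development, had the smallest adjusted p of all probes tested. It read -1.02, 0.76 and 1.0 (lowest, median and highest) in MSLW and -2.67, -1.96 and -1.0 in LW fetuses. The groups met at a single point, since MSLW fetus 450 (-1.02) and LW fetus 500 (-1.0) crossed and the other MSLW fetuses were at 0.07 or above. The signal of the 1 SALL3 probe was 5.37-fold higher with the MS sire (log2 difference 2.42, SE 0.25, limma adjusted p = 2.88e-09). It had the same direction within each of the 7 slides that held both groups. BCL2L15, a member of the BCL2 family of apoptosis regulators, read -1.29, 1.21 and 2.07 in MSLW and -2.34, -1.40 and -0.76 in LW fetuses. Fetus 450 was again at the LW level and no other MSLW fetus was under 0.92. The difference of BCL2L15 was 2.57 (SE 0.39, limma adjusted p = 9.18e-05), and its 1 probe was above background in all 17 fetuses.

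COG5, a subunit of the complex that tethers vesicles within the Golgi apparatus, showed how a difference could rest on 1 probe. Its probe A_72_P019101 was well above background in 6 of 8 MSLW and 0 of 9 LW fetuses, and was at least 2.51-fold higher (limma adjusted p = 1.21e-06, mean signal -3.96 against -7.18). Fetus 450 at -6.17 was within the LW range of -8.19 to -5.81, and the other MSLW fetuses were at -3.92 to -3.16. The other 3 probes of COG5, read in all 17 fetuses, differed by 0.01 to 0.43 and none was called. CEBPZ, a nuclear factor of ribosome assembly, had the same form, with a called difference of 1.74 (SE 0.43, limma adjusted p = 0.0325) and other probes at -0.01 and 0.07. The unnamed probe A_72_P487759, chosen after its values were seen, had the largest difference, well above background in 7 of 8 MSLW and 0 of 9 LW fetuses and at least 8.91-fold higher (limma adjusted p = 3.28e-05). The MSLW fetuses read -7.92, -1.38 and -0.98 and the LW fetuses -8.57, -8.03 and -4.26 at this probe. A_72_P265537, also unnamed and chosen after its values were seen, was above background in the same numbers of fetuses and at least 2.86-fold higher (limma adjusted p = 3.63e-08). Fetus 450 was the lowest MSLW fetus at both of these probes, at -7.92 and -7.73.

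AADAT, an aminotransferase of lysine and tryptophan breakdown, and SELENOF, a selenoprotein of the endoplasmic reticulum, were also chosen after their values were seen. AADAT was well above background in 7 MSLW fetuses and 1 LW fetus and differed by 3.94 (SE 0.67, limma adjusted p = 0.000606). Its signal was -7.54, -2.13 and -1.74 in MSLW and -8.24, -7.04 and -4.11 in LW fetuses. The SELENOF probe differed by 3.60 (SE 0.74, limma adjusted p = 0.00643) while the other 5 probes of SELENOF gave -0.32 to 0.03. For both genes the lowest MSLW value was that of fetus 450, and the other 7 MSLW fetuses were well above background.

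**Figure D3:**
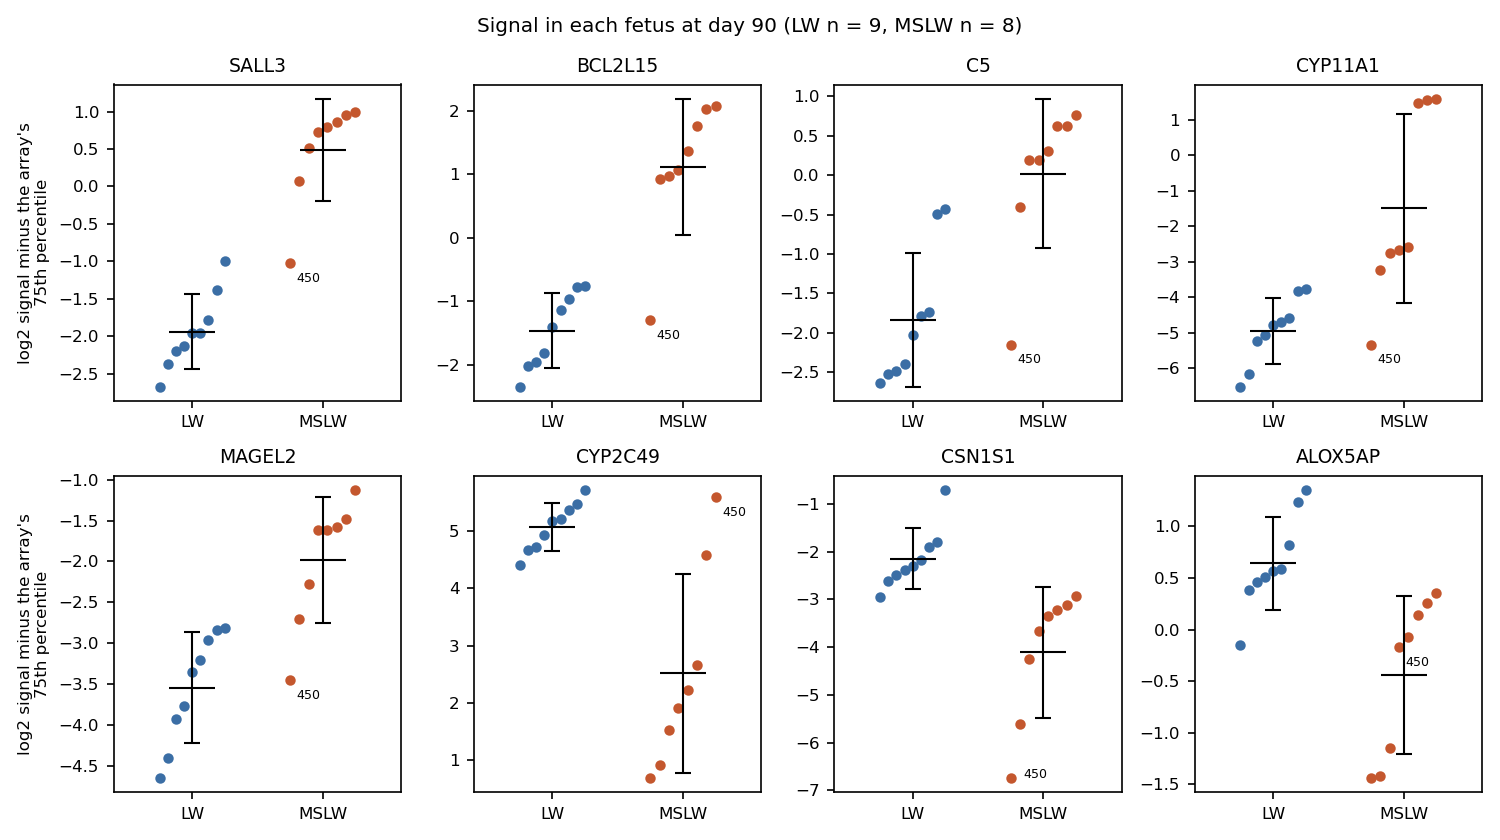
Each point is a fetus, with log2 signal minus the 75th percentile of its array on the y axis, for LW (n = 9) and MSLW (n = 8) fetuses, and bars give the mean and SD. CYP11A1 is highest in 3 MSLW fetuses, and fetus 450 lies at the LW level for SALL3, BCL2L15 and CYP2C49 but is the lowest MSLW fetus for CSN1S1.

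C5, GBP1 and CLCA1, which act in immunity and mucus, were among the genes called higher. C5, the complement component that starts the terminal pathway, read -2.15, 0.25 and 0.76 in MSLW and -2.64, -2.03 and -0.43 in LW fetuses. All MSLW fetuses other than 450 were above every LW fetus, with fetus 899 at -0.40 the closest. The difference was 1.85 (SE 0.40, limma adjusted p = 0.0091) at 1 of 2 called probes of the same sequence and 1.11 (adjusted p = 0.131) at the other sequence of C5. GBP1, an interferon-induced GTPase, was higher by 1.07 (SE 0.21, limma adjusted p = 0.00365) with no overlap, MSLW fetuses reading -1.35 to -0.51 and LW fetuses -2.72 to -1.37. Its other probes gave 0.24 to 0.69, and the probe that the study's tables pair with GBP1 missed the threshold at 0.69 (adjusted p = 0.0726) and passed it without fetus 450 at 0.87 (adjusted p = 0.00464). CLCA1, a protein that goblet cells secrete into mucus, was higher by 1.31 (SE 0.28, limma adjusted p = 0.00873) at 1 probe, and its 6 other probes gave 0.14 to 0.44.

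MAGEL2, a gene that is imprinted and known to be read from the paternal copy in human and mouse, was the member of the imprinted lists that was called. It read -3.45, -1.61 and -1.13 in MSLW and -4.65, -3.35 and -2.81 in LW fetuses, and only fetus 450 of the MSLW group was within the LW range. The difference was 1.57 (SE 0.34, limma adjusted p = 0.0116). At day 90 the median was -2.14 in the 6 MS and -3.66 in the 9 LWMS fetuses, and at day 110 it was -2.97 in the 6 MSLW, -2.86 in the 7 MS, -4.31 in the 9 LW and -4.14 in the 9 LWMS fetuses. Thus, at both ages the medians of the groups with an MS sire were above those of the groups with an LW sire. The sire contrast of MAGEL2 in MS sows was 1.40 (limma adjusted p = 0.0548) and in LW sows at day 110 it was 1.35 (limma adjusted p = 0.0485). Over the whole lists, 1 of 16 tested genes read from the paternal copy was called (median difference 0.02) and 0 of 12 read from the maternal copy (median -0.02).

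AMOTL2, a junction protein of the angiomotin family, had a difference of 2.21 at its 1 probe (SE 0.53, limma adjusted p = 0.0251). Its LW values spread from -5.95 to -1.28 and the MSLW values from -1.93 to 0.00, so the groups overlapped and the LW group was the wider. PAFAH2, which breaks down platelet-activating factor and oxidized phospholipids, differed by 1.47 (limma adjusted p = 0.0292), with LW fetuses 458, 462 and 736 between 1.45 and 1.91 at the level of MSLW fetuses and fetus 450 at the level of the other LW fetuses. The second probe of PAFAH2, the brighter of the pair, gave -0.43 (adjusted p = 0.275), and the call was lost without fetus 738 (adjusted p = 0.113). PHF2, a histone demethylase, differed by 1.39, SLC19A3, a thiamine transporter, by 1.36, and LRPPRC, which stabilizes mitochondrial transcripts, by 1.34 (limma adjusted p = 0.00326, 0.0145 and 0.00179). The other probes of LRPPRC gave -0.10 and 0.24 and were not called. For SLC19A3 and CEBPZ the direction held within 7 of the 7 slides, and for PHF2 and LRPPRC within 6.

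The largest decreases were in a pair of cytochrome P450 enzymes of the porcine 2C subfamily, which oxidize drugs and fatty acids. CYP2C34 read -5.55, -3.68 and 1.53 (lowest, median and highest) in MSLW and -0.77, 1.16 and 2.81 in LW fetuses. MSLW fetuses 450 and 498, at 1.53 and 0.84, were within the LW range, and the other 6 were at -2.97 or below. CYP2C34 was 16.5-fold lower (log2 difference -4.05, SE 1.01, limma adjusted p = 0.0343). CYP2C49 separated the same fetuses, with 450 and 498 at 5.59 and 4.59, the other MSLW fetuses at 0.69 to 2.67 and the LW fetuses at 4.41 to 5.71, a difference of -2.56 (SE 0.65, limma adjusted p = 0.0412). The second CYP2C34 probe gave -2.53 and the printed CYP2C49 probe -2.48 (limma adjusted p = 0.0494 for each), and all 4 CYP2C49 probes gave -2.57 to -2.22. CYP2C transcripts resemble each other, so the probes may share signal and the gene names are uncertain to that extent. The calls were kept without fetus 450 (adjusted p = 0.00844 and 0.00872) but were lost without any 1 of 12 fetuses for CYP2C34 and of 13 for CYP2C49, with adjusted p up to 0.113 and 0.131.

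CSN1S1, the milk protein alpha-S1 casein, was lower at every one of its 17 probes, by -2.29 to -0.91, and 14 of them were called. These probes lay on 7 stretches of the transcript, each with a called probe, and the printed overlapping probes A_72_P745041, A_72_P738882 and A_72_P727708 gave -1.74, -2.26 and -2.29 (limma adjusted p = 0.097, 0.0435 and 0.0412). At probe A_72_P738074 the MSLW fetuses read -6.74, -3.50 and -2.92 and the LW fetuses -2.95, -2.31 and -0.72. The groups overlapped by only LW fetus 500 at -2.95, and here fetus 450 was not LW-like but the lowest of all. The difference at this probe was -1.96 (SE 0.43, limma adjusted p = 0.0135), -1.58 without fetus 450 (adjusted p = 0.0454) and -1.74 without fetus 738 (adjusted p = 0.0562).

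ALOX5AP, the 5-lipoxygenase activating protein of leukotriene synthesis, was lower at all 5 of its probes, which held 3 distinct sequences and differed by -1.08 to -0.78, each called. At probe O10688 the MSLW fetuses read -1.44, -0.12 and 0.35 and the LW fetuses -0.15, 0.57 and 1.35. Fetuses 899, 900 and 902 were lowest at -1.44 to -1.15, and the other 5 MSLW fetuses overlapped the LW range or lay just under it. The difference was -1.08 (SE 0.23, limma adjusted p = 0.00866). The summed linear signal of 7 macrophage markers, on the same scale, was 3.54 to 16.1 (median 11.4) in MSLW and 13.0 to 23.7 (median 14.8) in LW fetuses, with 0 markers called and CD163, CSF1R, C1QA, C1QB, MRC1 and VSIG4 above background in all 17 fetuses. The part of macrophages in the ALOX5AP difference was not tested.

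ART3, an ADP-ribosyltransferase, had the smallest adjusted p among lower genes named here. It read -6.10, -3.83 and -2.74 in MSLW and -2.94, -2.35 and -0.85 in LW fetuses, with fetus 450 lowest and fetus 498 the only MSLW fetus within the LW range. The difference was -1.93 (SE 0.31, limma adjusted p = 0.000346), and the second ART3 probe gave -1.80 (adjusted p = 0.00179). AIRE, which drives expression of tissue antigens in the thymus, read -5.31, -3.32 and -0.76 in MSLW and -1.61, -0.83 and -0.56 in LW fetuses. Fetuses 450 and 902 were within the LW range and the other MSLW fetuses below it, a difference of -2.11 (SE 0.53, limma adjusted p = 0.0349) that was not called without fetus 738 (adjusted p = 0.128) or 484 (adjusted p = 0.0609).

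METTL16, an RNA methyltransferase, and TANC2, a scaffold protein, again set MSLW fetuses 899, 900 and 902 apart. METTL16 was at -4.04 to -3.58 in these 3, at -2.66 to -0.82 in the other MSLW fetuses and at -1.75 to -0.32 in LW fetuses, a difference of -1.40 (SE 0.33, limma adjusted p = 0.0239). TANC2 was at -2.96 to -2.56 in the same 3 and at -2.28 to -0.19 in the others, against -1.15 to -0.21 in LW fetuses, a difference of -1.30 (SE 0.28, limma adjusted p = 0.0104), while its second probe gave 0.14 (adjusted p = 0.787). MTFP1, a mitochondrial inner membrane protein that promotes fission, had a smaller difference but no overlap. It read -1.18 to -0.52 in MSLW and -0.42 to 0.87 in LW fetuses, a difference of -1.04 (SE 0.24, limma adjusted p = 0.0164), and its second probe, listed under the older name MTP18, has the same sequence and gave -1.05 (adjusted p = 0.0286). SLC12A1, the sodium-potassium-chloride cotransporter best known from the kidney, was lower by -1.09 and -0.84 at its 2 probes (limma adjusted p = 0.0242 and 0.0494), and MMRN2, a matrix protein of endothelium, by -1.0 (adjusted p = 0.0228), with all 5 of its probes at -1.15 to -0.98.

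**Figure D4:**
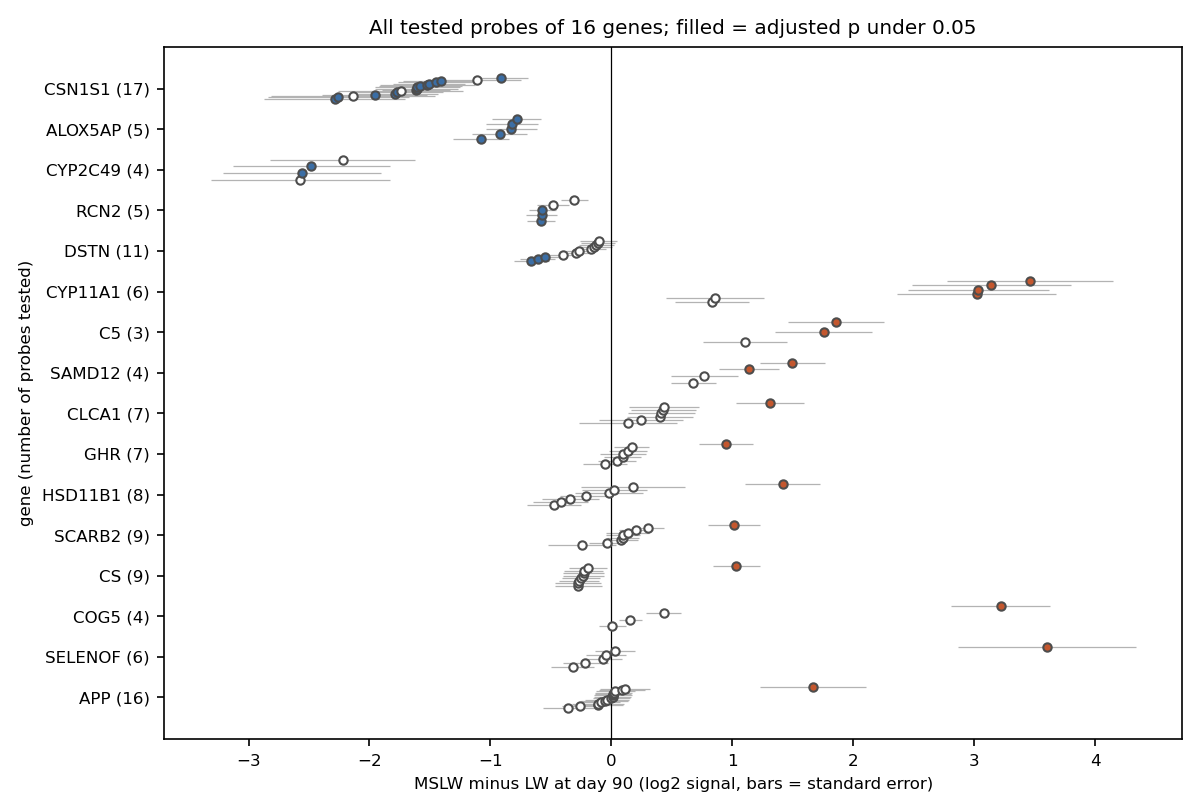
For 16 genes, each point is a tested probe with the MSLW minus LW difference at day 90 in log2 signal and its standard error, and filled points have an adjusted p under 0.05. All 17 probes of CSN1S1 and all 5 of ALOX5AP lie below 0, while SELENOF and APP each have 1 called probe and 5 and 15 others between -0.36 and 0.12.

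The number of probes that carried a difference was set out for the 159 called genes, counting MTP18 with MTFP1, after probes that share a stretch of 20 bases were joined into 1 target. Of these genes, 106 had several targets, and 11 were called at 2 or more of them. These were ALOX5AP, ART3, CSN1S1, CYP11A1, CYP2C34, CYP2C49, DSTN, INADL, RCN2, SAMD12 and SLC12A1. Among genes with several targets, 3 of 73 called higher (4.11%) and 8 of 33 called lower (24.2%) were called at 2 or more targets. The uncalled probes of genes called lower had the sign of the called probe for 69 of 75 (92.0%) and a median difference of -0.32, and those of genes called higher for 146 of 209 (69.9%) and a median of 0.18. The comparison of these shares was not tested. APP, chosen after its values were seen, is an example of the first kind, since 1 probe differed by 1.67 and the other 15 by -0.36 to 0.12.

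Calls in the pathways of the maturing gut were counted beside the share over all genes. With 1 probe per gene, the one with the highest mean signal, 88 of 10821 genes were called (0.813%), 57 higher and 31 lower, with a median difference of -0.01. Of 24 pathway lists, 18 had 0 called members by this probe, and the medians of the lists were -0.18 to 0.18. At a share of 0.813%, 0 or 1 call in a list of at most 56 tested genes does not set that list apart from all genes. The lists without a call included brush-border enzymes (0 of 17 tested, median -0.09), apolipoproteins and lipid absorption (0 of 21, median -0.08), oxidative phosphorylation (0 of 56, median -0.14), cell cycle (0 of 25, median -0.04), sugar transport, fructose and gluconeogenesis (0 of 20, median -0.11), peptide and amino acid transporters (0 of 12, median -0.11) and chemokines, cytokines and toll-like receptors (0 of 34, median -0.13). The 6 lists with a called member had 1 each, namely C5 of 23 in complement, COL18A1 of 38 in collagens and matrix, CPT2 of 29 in fatty acid oxidation, BMI1 of 21 in crypt stem cell and Wnt, CYP2C49 of 29 in xenobiotic metabolism and MAGEL2. COL18A1, a basement membrane collagen, was higher by 0.72 (SE 0.15, limma adjusted p = 0.00643). CPT2, which passes fatty acids into mitochondria, was higher by 0.37 (SE 0.09, limma adjusted p = 0.0225) at 1 probe, and its second probe gave -0.18 (adjusted p = 0.832). BMI1, a Polycomb protein of stem cells, was lower (difference -0.57, SE 0.14, limma adjusted p = 0.0325).

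By a probe other than the representative one, members of 7 further lists were called. SQLE, the squalene epoxidase of cholesterol synthesis, was lower with no overlap, at -0.58 to 0.14 in MSLW and 0.18 to 1.15 in LW fetuses (difference -0.72, SE 0.19, limma adjusted p = 0.0435). GHR, the growth hormone receptor, was higher by 0.95 (limma adjusted p = 0.0244) at 1 probe and its others gave -0.05 to 0.17. DSP, the desmosomal protein desmoplakin, was higher by 0.75 (limma adjusted p = 0.0187) at 1 probe, and its brighter second probe gave 0.24 (adjusted p = 0.45). The 20 lists of cell type markers covered enterocytes, goblet, endocrine, immune, stromal, muscle, nerve and blood cells and neighbouring organs. Of these lists, 0 had a called member by the representative probe and only the goblet cell list by any probe, through CLCA1. With 1 to 9 tested members each, they were too short for calls to be expected at the share of 0.813% over all genes. The summed signal of 7 enterocyte markers was 166 to 336 in MSLW and 212 to 328 in LW fetuses, and that of 5 goblet cell markers 101 to 146 and 104 to 237.

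Calls near the threshold depended on single fetuses. Of the 35 named probes called, 17 were called whichever 1 of the 17 fetuses was left out, namely those of CYP11A1 (both), BCL2L15, SALL3, C5, MAGEL2, PHF2, SLC19A3, LRPPRC, CLCA1, COG5, ART3, TANC2, ALOX5AP, HSD11B1, GBP1 and COL18A1. CSN1S1 was lost without fetus 738 alone, MTFP1 without fetus 462 alone (adjusted p = 0.0543), METTL16 without 899, 900 or 902, MMRN2 without 449, 894 or 899 and CPT2 without 462, 484 or 899. AMOTL2, SLC12A1 and DSP were lost without any 1 of 4 fetuses, MTP18 of 5, GHR of 6, PAFAH2 and CEBPZ of 9, AIRE of 10, BMI1 of 11, and SQLE of 13, with limma adjusted p of at most 0.128 among these. When the 17 fetuses alone entered the fit, 16 of the 35 were called. Those lost included ALOX5AP (adjusted p = 0.101), TANC2 (0.0845), CLCA1 (0.0796), HSD11B1 (0.0788), CSN1S1 (0.0736) and PHF2 (0.053), and the variance then came from the 17 fetuses in place of all 63.

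Of further genes that the study names, taken in whatever their result, CYP11A1 and GBP1 were called at the probes given above, and the others were not called at their brightest probe. BCKDHB, of branched-chain amino acid breakdown, differed by -0.35 (SE 0.19, limma adjusted p = 0.439) and the monocyte chemokine CCL2 by -0.37 (SE 0.23, adjusted p = 0.526). The glucocorticoid receptor NR3C1 differed by 0.03 (SE 0.13), PPARGC1A, a coactivator of mitochondrial genes, by -0.16 (SE 0.18), SMS, the spermine synthase, by 0.11 (SE 0.28), SRPX2 by 0.02 (SE 0.19), JMJD6 by -0.04 (SE 0.10) and MTFR2 by -0.12 (SE 0.14), none called with limma. The other probes of CCL2 gave -0.63 to -0.34. Those of NR3C1 gave -0.02 to 0.30, apart from A_72_P171036 at -0.81 (limma adjusted p = 0.0946), and none was called. PF4 was too dim to be tested.

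Genes were also grouped by their place in the reference table. Of probes with 1 gene on an autosome, 178 of 20278 were called (0.878%), and of those on the X chromosome, which the sow passes to a son, 1 of 754 (0.133%). That 1 was TAB3, an adaptor of inflammatory signalling, higher by 0.61 (SE 0.16, limma adjusted p = 0.0416). Mitochondrial genes, also from the sow, had 0 of 127 probes called for 13 genes. Genes that the reference table places on the Y chromosome had 4 tested probes and 0 called, with EIF1AY at -0.28 (SE 0.14, limma adjusted p = 0.41) and above background in all 17 fetuses, and the other 3 at 0.06 to 0.35. ZFY, which a list of Y-linked genes held but that table did not place there, was at -0.12 (adjusted p = 0.803). A further 16 of 1572 probes of genes without a place in the reference table were called (1.02%).

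The sign of the sire difference was then read in the other fetuses. Of the 271 probes, 252 (93.0%) had the same sign in MS against LWMS fetuses carried by MS sows at day 90, where 54.8% of all probes tested had, and 261 (96.3%) had the same sign in LW sows at day 110, where 59.0% of all had. The signs held in MS sows for 158 of the 175 higher probes (90.3%) and 94 of the 96 lower probes (97.9%). In MS sows 1 of the 175 and 29 of the 96 were also called, where 0.0691% of all probes were called higher and 0.652% lower, and 0 were called in the opposite direction. At day 110, 43 of the 175 and 28 of the 96 were called with the same sign, where 0.615% of all probes were called higher and 0.708% lower, and again 0 in the opposite direction. The median difference of the higher probes was 0.97 here, 0.34 in MS sows and 0.52 at day 110, and that of the lower probes -0.82, -0.65 and -0.61.

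The sizes at day 110 of single genes are a description, since 0 probes passed the direct test of day 110 against day 90 given below. BCL2L15 differed by 2.57 at day 90 and by 2.58 at day 110 (limma adjusted p = 0.00024), AMOTL2 by 2.80 (adjusted p = 0.00408) and PAFAH2 by 2.67 (adjusted p = 2.35e-05) at day 110. C5 was at -0.41 (limma adjusted p = 0.7) at day 110, when LW fetuses had a median of 2.33 and MSLW fetuses one of 1.42, against -2.03 and 0.25 at day 90. CYP11A1 A_72_P684857 was close to background at day 110, well above it in 0 of 9 LW and 1 of 6 MSLW fetuses. In MS sows at day 90 this probe had medians of 0.77 in LWMS and 2.66 in MS fetuses, both above the -2.62 of MSLW fetuses. The sire difference there was 1.19 and was not called. COG5 A_72_P019101, above background in 0 of 9 LW fetuses at day 90, was above it in 4 of 9 LW fetuses at day 110. AADAT differed by 4.93 at day 110 (limma adjusted p = 3.43e-05), A_72_P487759 by 6.27 (adjusted p = 3.52e-06) and SELENOF by 5.70 (adjusted p = 1.41e-05).

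In MS sows 28 probes were called higher and 264 lower with the MS sire, so few higher probes could be called in all 3 sets of fetuses. Called in all 3 sets were 15 of the 40515 probes tested, each of them lower with the MS sire. They read TRMT10B, a tRNA methyltransferase, RCN2, a calcium-binding protein of the endoplasmic reticulum, NUP43, of the nuclear pore, SQLE, ARL10, LGMN, a lysosomal protease, SLC12A1 with 2 probes, TSPYL1, MMRN2, TANC2 and 4 without a gene name. Most of these were chosen after their values were seen. SLC12A1 differed by -1.09 here, -1.11 in MS sows and -1.02 at day 110 (limma adjusted p = 0.0242, 0.0344 and 0.0468), and LGMN by -0.74, -0.68 and -0.57 (adjusted p = 0.00264, 0.00776 and 0.036). The second probes of LGMN and TANC2 gave 0.68 and 0.14 here and were not called. The other probes of TSPYL1 gave -0.13 and -0.08 here and were not called either. CYP2C34 and CYP2C49 were lower in MS sows also, by -4.36 and -3.45 (limma adjusted p = 0.0331 and 0.00321), and at day 110 they differed by -3.30 and -1.84 (adjusted p = 0.115 and 0.182).

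**Figure D5:**
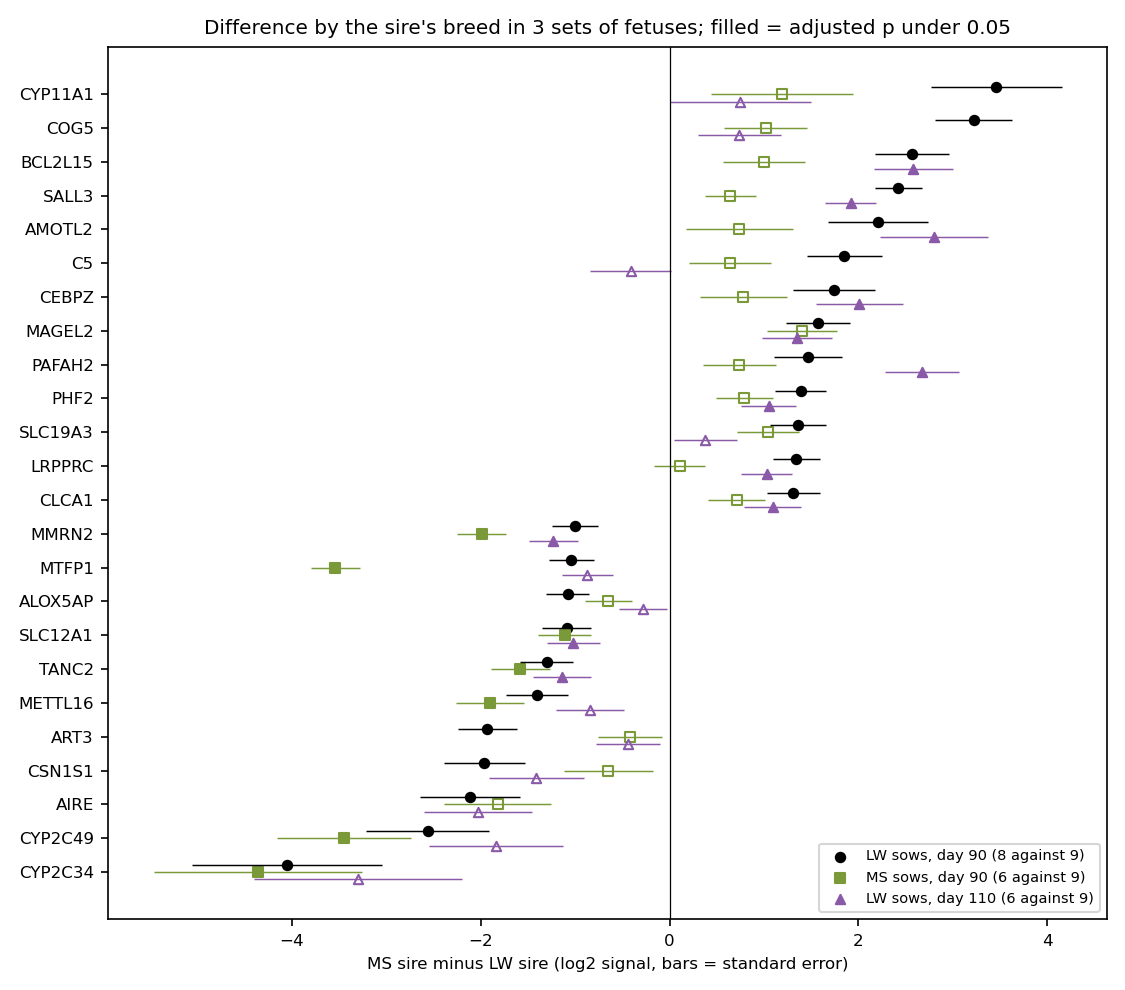
For each named gene on the y axis, the MS sire minus LW sire difference in log2 signal with its standard error is drawn for LW sows at day 90 (8 against 9 fetuses), MS sows at day 90 (6 against 9) and LW sows at day 110 (6 against 9), filled where the adjusted p was under 0.05. SLC12A1, TANC2 and MMRN2 are filled in all 3. CYP11A1 is filled in LW sows at day 90 alone, but the direct tests of its difference between sows and between ages were not called (limma adjusted p = 0.931 and 0.792).

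Whether the sire difference was the same in LW sows and MS sows was tested directly. With limma, 18 of 40515 probes (0.0444%) passed at an adjusted p of 0.05, against 1959 at an unadjusted p under 0.05. In LW sows the test sets crossbred against purebred LW fetuses, and in MS sows purebred MS against crossbred fetuses. The breed of the sow and the number of MS sets of autosomes in the fetus therefore cannot be told apart in it. The difference in LW sows minus that in MS sows was positive at all 18. At 17 of them the probe was called lower with the MS sire in MS sows, and SALL3 was the exception. SALL3 differed by 2.42 in LW sows and 0.64 in MS sows (difference 1.79, SE 0.37, limma adjusted p = 0.0234), since LWMS fetuses, at a median of 0.04, were already close to the MS fetuses at 0.81. MTFP1 was lower in both, by -1.04 in LW sows and -3.54 in MS sows (difference 2.50, SE 0.35, limma adjusted p = 2.26e-05), with medians of 0.04 in LW, -0.85 in MSLW, -0.67 in LWMS and -4.55 in MS fetuses. The probe A_72_P417829, printed above, had the smallest p. It was well above background in all LW, MSLW and LWMS fetuses at day 90, with medians of 0.44, -0.29 and -0.71, and in 0 of 6 MS fetuses, where it was at least 30.4-fold lower than in LWMS fetuses (difference between sows 6.50 on measured signals, limma adjusted p = 7.99e-21).

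PIP4K2A, a lipid kinase, and NUBPL, an assembly factor of complex I, had the same form at day 90, each at 1 of 5 tested probes. In MS sows the other 4 probes gave 0.03 to 0.33 for PIP4K2A and -0.46 to 0.23 for NUBPL. PIP4K2A differed by -0.83 in LW sows (limma adjusted p = 0.22) and -4.58 in MS sows, with medians of 0.17, -0.61, -0.88 and -5.68 in LW, MSLW, LWMS and MS fetuses (difference between sows 3.74, SE 0.46, limma adjusted p = 7.66e-07). NUBPL was well above background in 0 of 6 MS fetuses, at least 6.64-fold lower than in LWMS fetuses, and differed by -0.86 in LW sows (adjusted p = 0.388; difference between sows 3.75, SE 0.63, adjusted p = 0.00143). In log2 signal at day 90, the crossbred fetuses of either sow lay nearer LW than MS fetuses at these 3 probes. The purebred MS fetuses lay far below. Equal steps of signal are not equal steps in log2, so a place between the purebred groups depends on the scale. At day 110 the medians in LW, MSLW, LWMS and MS fetuses were 0.84, -0.09, -0.45 and -6.61 for A_72_P417829 and -0.19, -1.32, -1.24 and -4.92 for PIP4K2A. For NUBPL they were -3.15, -6.78, -3.11 and -7.16, so that MSLW fetuses, with 2 of 6 above background, lay near MS fetuses at that age. With normexp background correction A_72_P417829 and PIP4K2A alone remained called for the difference between sows, and those of SALL3 (adjusted p = 0.123), MTFP1 (adjusted p = 0.155) and NUBPL (adjusted p = 0.998) were not called with limma. Whether the sire difference in LW sows changed between day 90 and day 110 was tested in the same way and 0 probes were called with limma, with 2278 at an unadjusted p under 0.05 and a lowest adjusted p of 0.261. An ordinary linear model also gave 0, and 1, 3 and 27 probes were called with normexp background correction, the authors' processed values and array weights.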

How the data were processed

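Jejunum RNA of 63 fetuses was measured on one-colour arrays, and each fetus was grouped by its labels. The authors deposited scanner output from Agilent Feature Extraction 10.10.1.1, with spot intensity corrected for background. The authors also deposited log2 values for 39446 probes, which by their values are quantile normalized and were used as an alternative. From the scanner files, log2 intensity minus the array's 75th percentile was taken. Control spots were left out, outlier spots were set to missing and spots of 1 probe were averaged. Background correction makes differences near the floor uncertain in size. A probe was tested when well above background on at least 75% of arrays of 1 or more groups (40515 of 60305 probes), which sets how many tests are adjusted for. Each of the named genes had values in all 17 fetuses.

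Means of 8 groups were fitted with limma 3.58.1 in R 4.3.3, with two-sided p-values adjusted by Benjamini-Hochberg over all probes tested. The number of arrays limits the precision. Sow was a random effect in the study and was not used. Figures were drawn with matplotlib 3.10.9 in Python 3.11.15. Folds given as at least a value compare the brighter mean with the lowest signal well above background on each array of the dimmer group, or the probe's own signal if higher. Gene names came from the study's tables, the array files or the RefSeq table of Sscrofa11.1, and no coordinates are given.

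Named genes were the 12 with the largest called differences in each direction that were above background on at least 75% of arrays of both groups, up to 5 in each direction above background in one group alone, called members of lists (at most 4 a list), a set of genes that the study names, and the 5 smallest p-values of each called difference between contrasts. The comparison, lists and tests were chosen with earlier results of these data known. Genes outside this rule are said to be so. A called list member is not reported here. The steps were tested on simulated data. Alternatives were a least squares fit for each probe, weights for arrays, a block for the slide, a stricter filter or none, centring on the median, quantile scaling, normexp (offset 50), the authors' values, outlier spots kept, the 17 fetuses alone and leaving out LW fetus 484. Leaving out each of the other 16 fetuses was added after seeing the data.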

Additional observations from a re-analysis of the deposited data

Results flagged for a closer look

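In 12 of 96 groups of values, 1 fetus lay far from the others of its group. A rate of 1 in 20 groups, or 4.8, would hold for independent values. These groups shared the same fetuses, and most probes were chosen by their calls in them, so that rate does not apply. Of the 12, 8 were MSLW fetus 450, the same animal each time. It was low at -1.29 for BCL2L15 (others 0.92 to 2.07), -1.02 for SALL3 (0.07 to 1.0), -2.15 for C5 (-0.40 to 0.76), -4.56 for CEBPZ (-2.26 to -1.40), -6.17 for COG5 (-3.92 to -3.16), -0.51 for CCL2 (1.17 to 1.74) and -0.70 for the GBP1 probe that the study's tables pair with the gene (0.43 to 1.01), and high at 2.75 for JMJD6 (2.29 to 2.50). MSLW fetus 899 was low for MMRN2 at -3.52 (-2.20 to -1.29). LW fetus 736 was high for PHF2 at -0.48 (-2.83 to -1.85), and LW fetus 484 was low for COL18A1 at 4.28 (4.71 to 5.14) and for PPARGC1A at 0.13 (1.19 to 1.80). No fetus was left out for these values, and what sets fetus 450 apart was not tested.

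The sire difference of 6 of the named probes differed between LW sows and MS sows by a direct test with limma. The difference of the differences was 1.79 for SALL3, 2.57 for MTP18 and 2.50 for MTFP1, which share a probe sequence, 6.50 for A_72_P417829, 3.74 for PIP4K2A and 3.75 for NUBPL. SALL3 differed more in LW sows, and the other 5 differed more in MS sows.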

How the results depend on the processing

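The count of 271 probes became 111 with median centring, 172 with no filter on dim probes and 4423 with array weights, which gave LW fetus 484 a weight of 0.19 and MSLW fetus 450 one of 0.58. Leaving out 1 fetus at a time gave 139 (without MSLW fetus 738) to 720 calls (without LW fetus 500). Of the 35 named probes called, 21 were called with median centring, 22 of the 22 tested with a filter that requires every array, 16 when only the 17 fetuses entered the fit, and 23 (without fetus 738) to 35 with 1 fetus left out. None of these changed direction. The 18 probes whose sire difference was not the same in LW and MS sows became 6 with the authors' values, 2 with normexp and 107 with array weights. With 1 fetus left out they were 15 to 21. The 0 probes that depended on age became 3, 1 and 27, and stayed at 0 with any 1 fetus left out. Differences of dim probes were smaller with normexp and with the authors' values, which are quantile normalized. For COG5 A_72_P019101 the fitted difference was 0.912 with normexp and 1.165 with the authors' values, for ART3 -0.945 and -1.3, for CSN1S1 -0.908 and -1.264, and for CYP11A1 A_72_P684857 2.311 and 2.503, all called. The cause of these changes was not tested, except that a filter requiring every array leaves fewer probes to test. NR3C1 and SRPX2, which were not called, turned sign. NR3C1 gave -0.003 with median centring, -0.031 with array weights, -0.015 without LW fetus 484 and -0.009 to 0.085 with another fetus left out. SRPX2 gave -0.009 with median centring, -0.027 with the slide as a block and -0.032 to 0.074 with 1 fetus left out. The probes with the same sign in other fetuses stayed at 242 to 256 in MS sows and 256 to 261 at day 110, apart from 176 and 182 with the filter requiring every array. Near the background, the size of a difference is not well measured. No paired analysis was possible because the fetus numbers are unique and the labels give no sow.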
